A study of Mus musculus with 6 samples.

Results

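The genes described here are 33 transcription factor genes of the neural lineage, a set chosen by gene name, with earlier results of these data known. All 33 were found in the RefSeq gene table of the mouse GRCm38.p6 assembly, among 21887 coding genes. SALL4 binding was mapped in mouse embryonic stem cells by CUT&RUN, a method that tethers a nuclease to an antibody on chromatin and sequences the DNA it cuts free. The wild type (WT) line has the genotype Sall4F/F, in which Sall4 is flanked by recombination sites but intact, and the knockout (KO) line is Sall4-/-. Both were grown in 2i + LIF medium, which holds the cells in an undifferentiated state, and each gave 2 SALL4 libraries with 1 peak list each. Each genotype is 1 line, nothing says that the 2 libraries of a line came from separate cultures, and a p-value therefore measures only the spread between these libraries, which may be technical. The 2 IgG libraries were not analysed here. Peak lists hold no transcript levels, so the cell type was not checked against its markers.

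SALL4 is a zinc-finger protein of the early embryo and of stem cells, whose zinc-finger cluster 4 prefers AT-rich DNA. Neural transcription factors act in steps. SOX and PAX factors mark neural progenitors and divide the neural tube into domains, proneural bHLH factors such as the neurogenins push progenitors to become neurons, and homeodomain factors fix the identity of each neuron type. In undifferentiated embryonic stem cells most of these genes are silent or lowly transcribed.

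For each gene, the SALL4 intervals were counted in the gene body plus 20 kb on each side. An interval found in both WT lists, overlapping by at least 1 bp, is called shared. Distances given for single intervals run from the summit, the point of highest coverage, to the nearer end of the gene. The 33 windows cover 1703.5 kb, and those of Zic1 and Zic4, which are neighbours, overlap.

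The promoter sequences of Olig3, Tlx3 and Olig2 show where the only shared intervals at member promoters lie, and a related promoter with none. Each is the 300 bases from 250 before to 50 after the transcription start in RefSeq (GRCm38.p6), written 5′ to 3′ on the gene's strand. Capitals mark the bases that lie inside a shared SALL4 interval.
Olig3 (chr10:19356289-19356588, plus strand): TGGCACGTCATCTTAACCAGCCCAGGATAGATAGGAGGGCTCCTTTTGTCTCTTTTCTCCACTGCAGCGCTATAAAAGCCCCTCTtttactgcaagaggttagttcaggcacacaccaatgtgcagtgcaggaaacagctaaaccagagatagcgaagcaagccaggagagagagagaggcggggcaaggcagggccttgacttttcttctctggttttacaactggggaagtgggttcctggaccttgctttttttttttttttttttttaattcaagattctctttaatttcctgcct
Tlx3 (chr11:33203539-33203838, minus strand): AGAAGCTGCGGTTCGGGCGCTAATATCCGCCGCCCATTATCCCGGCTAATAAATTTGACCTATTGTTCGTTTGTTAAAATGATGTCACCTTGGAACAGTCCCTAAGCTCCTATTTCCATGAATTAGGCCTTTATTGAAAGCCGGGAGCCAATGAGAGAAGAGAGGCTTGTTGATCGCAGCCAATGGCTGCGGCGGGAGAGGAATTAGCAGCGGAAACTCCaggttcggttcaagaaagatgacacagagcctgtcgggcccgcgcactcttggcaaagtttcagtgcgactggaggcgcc
Olig2 (chr16:91225300-91225599, plus strand): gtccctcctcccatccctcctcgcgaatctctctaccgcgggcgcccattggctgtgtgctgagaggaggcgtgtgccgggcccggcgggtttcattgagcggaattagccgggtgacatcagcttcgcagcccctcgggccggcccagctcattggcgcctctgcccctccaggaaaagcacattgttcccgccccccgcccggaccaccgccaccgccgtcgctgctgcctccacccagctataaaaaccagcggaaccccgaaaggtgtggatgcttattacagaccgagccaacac
At Olig3 85 of the 300 bases, the part farthest from the start, lay in an interval, and at Tlx3 220 of 300 did. At Olig2 no base did.

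A shared SALL4 interval was present at 15 of the 33 neural genes (45.5%), and 18 had none. Across all coding genes the share was 51.4%. The comparison depends on gene size, since the neural genes are short, with a median body of 5.34 kb against 17.2 kb for coding genes. Among the 1181 to 4864 coding genes within 1.5 times of each neural gene in body length, a mean of 42.2% had a shared interval. The neural genes thus lay between these 2 backgrounds, and their share is near both. The direction against all coding genes turned with the flank, at 15.2% against 27.6% for the gene body alone and 72.7% against 68.7% with 50 kb on each side.

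The mean count was 0.939 shared intervals per neural gene, 1.66 per coding gene and 0.969 per coding gene of similar length. The median was 0 shared intervals per neural gene and 1 per coding gene, and 0 and 0.0550 per 10 kb. The means were 0.166 per 10 kb for neural genes, 0.188 for all coding genes and 0.174 for coding genes of similar length. Whether the neural genes' mean lay below or above that of all coding genes depended on the setting. It was 0.210 against 0.189 with flanks of 10 kb, 0.0634 against 0.0546 where −log10 q had to reach 10, and 0.0541 against 0.0369 where fold enrichment had to. The 31 shared intervals in the windows correspond to 18.2 per Mb, against 18.7 per Mb in the windows of all coding genes together. Of the 33 genes, 13 had more than the median of coding genes of similar length, 19 had as many and Lhx2 had fewer. That median was 0 except for Pax3, Lmx1b, Zic4, Pax6 and Lhx2. The other genes could not lie below it, and any shared interval put them above, so this split shows no excess over genes of similar length.

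The intervals were unevenly spread. Pax3, Nkx6-2, Olig3 and Sox21 had 3 or more each and together held 18 of the 31 shared intervals (58.1%). That is 4 of 33 genes, where 20.5% of all coding genes had 3 or more. Of coding genes similar in length to Olig3 and to Sox21, 6.77% and 8.57% did. This share was not computed for the other members. The counts of all coding genes were also uneven, with a mean of 1.66 and a median of 1. Their share of intervals held by genes with 3 or more was not computed, so the 58.1% cannot be called particular to neural genes. Lmx1b and Zic4 had 2 each, and 9 genes had 1 each, among them all 3 neurogenins.

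**Figure D1:**
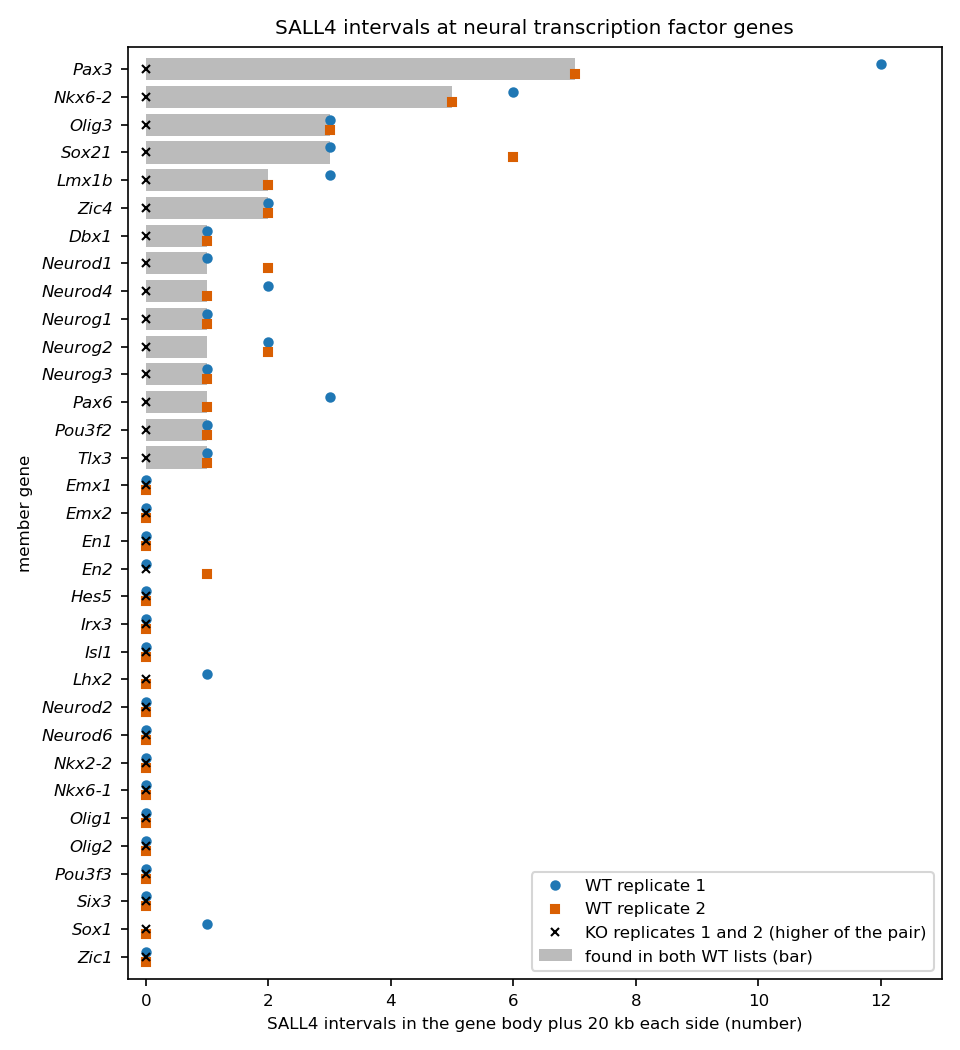
Number of SALL4 intervals in the gene body plus 20 kb each side (x axis) for each of the 33 neural transcription factor genes (y axis). Grey bars count intervals found in both WT lists, circles and squares are WT replicates 1 and 2, and crosses are the KO lists, which are at 0 for every gene. Pax3 is highest, with 12 and 7 intervals in the WT replicates.

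The genotypes were compared to ask whether the intervals at these genes were found without SALL4. In the combined windows the lists held 44 intervals in WT replicate 1, 37 in WT replicate 2, 0 in KO replicate 1 and 0 in KO replicate 2. Both WT libraries lay above both KO libraries. The difference was 5.37 on the scale of log2(number + 1), and by an exact permutation test, two-sided, p was 0.333, the smallest that 2 against 2 libraries allow. The KO lists, of 34 and 39 intervals in all, held 0 on the autosomes, where all 33 genes lie. The weakest listed intervals had a −log10 p of 3.55 and 3.60 in the WT lists and of 7.63 and 7.12 in the KO lists. If the limit is set to 8 for every library, a value added after the data were seen, 20 of the 31 shared intervals pass in both WT lists. Library depth is unknown, and its part in the difference was not tested.

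PAX factors are paired-domain proteins that pattern the neural tube and eye. Pax3, needed in the dorsal neural tube and neural crest, lies at chr1:78101267-78197136 and has the longest body of the set, 95.9 kb. It had 12 intervals in WT replicate 1 and 7 in replicate 2, of which 7 regions were shared. Of the coding genes of similar length, 14.8% had as many or more. Of the 7, 5 lay inside the gene and 2 beside it. The strongest, inside the gene at chr1:78119979-78120403, had fold enrichments over the local background of 18.3 and 12.6 in replicates 1 and 2, as the authors' peak caller gave them. The next, 4.4 kb outside the lower-coordinate end of the gene at chr1:78096715-78097036, had 13.5 and 12.5. The other 5 had mean fold enrichments of 4.45 to 9.16. One, at chr1:78081998-78082233, lay 19.2 kb outside the gene and had 6 and 5 fragments at the summit. The remaining 4 lay inside it, at chr1:78137025-78137373, chr1:78167097-78167284, chr1:78167637-78168460 and chr1:78171679-78172108. Replicate 1 gave the higher fold enrichment at all 7 Pax3 intervals.

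Pax6, a master regulator of eye and forebrain development, had 3 intervals in WT replicate 1 and 1 in replicate 2. Its 1 shared interval, at chr2:105677479-105677895 inside the gene, was weak, with fold enrichments of 5.51 and 4.76. The summit lay 4.83 kb upstream of the nearer of its listed start sites. Neither of the 2 Pax6 promoters in the table overlapped an interval.

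SOX factors of the B group keep neural progenitors dividing or help them leave the cycle. Sox21, which counteracts its activating relatives and promotes neuronal differentiation, lies at chr14:118233233-118237030. It had 3 intervals in WT replicate 1 and 6 in replicate 2, with 3 shared. One of them, at chr14:118229979-118230810 and 2.87 kb past the end of the gene, was the strongest shared interval at any neural gene. Its fold enrichment was 16.3 in replicate 1 and 27.7 in replicate 2, a mean of 22.0 ± 8.0 (SD, n = 2), with 47 and 54 fragments at the summit. It stood above 96.6% of the shared intervals in the genome. The second, at chr14:118232959-118233124, lay 0.178 kb past the end of the gene and was weaker, with 6.89 and 6.12. The last, at chr14:118253481-118253699 and 16.6 kb upstream, had 8.25 and 6.88. Sox21 thus has shared intervals on both sides and none inside its 3.80 kb body.

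Sox1, an early marker of neuroectoderm, had 1 interval in WT replicate 1 and 0 in replicate 2, so none was shared. That interval rested on 6 fragments at the summit, with a fold enrichment of 3.56. The nearest shared interval to Sox1 was 32.2 kb from the gene.

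The bHLH genes were next, 11 in all, and 6 of them had a shared interval (54.5%). This is near the 51.4% of all coding genes, and the mean share of coding genes of similar length was 35.7%. Olig3, which specifies dorsal neurons of the hindbrain and spinal cord, had 3 intervals in each WT list, and all 3 were shared. Its window holds no other annotated gene. The interval at the promoter, chr10:19355963-19356373, whose end nearer the gene is shown in capitals above, had fold enrichments of 15.8 and 13.6, with its summit 0.362 kb upstream of the start. The others lay downstream, 13.6 and 15.8 kb from the start. The first of them, at chr10:19369917-19370593, had 17.8 and 14.6. The second, at chr10:19372046-19372803, had 16.0 and 23.0. By mean fold enrichment the 3 stood at percentiles 88.3, 90.9 and 94.7 of the shared intervals in the genome.

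The related Olig1 and Olig2, which specify oligodendrocytes and motor neurons, had 0 intervals in both WT lists. They lie close together on chromosome 16, and their nearest shared intervals were 37.0 and 28.5 kb away.

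Neurog1, Neurog2 and Neurog3 are proneural factors, the last best known in the endocrine pancreas. Each had 1 shared interval, and none lay in the gene body. The interval of Neurog1, at chr13:56257961-56258473 and 6.05 kb upstream, had fold enrichments of 17.9 and 12.2. The interval of Neurog2, at chr3:127652081-127652484 and 16.7 kb past the gene's end, had 8.95 and 12.9. At Neurog3, at chr10:62136086-62136378 and 1.45 kb past the end, they were 8.22 and 6.08. Its summits lay 119 bp apart, and it is not shared where they must lie within 100 bp. Of coding genes of similar length, 30.3% to 36.8% had at least 1 shared interval, so a single interval at each gene is not unusual.

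The NeuroD factors act after the neurogenins, in neurons that are already forming. Neurod1 had 1 interval in WT replicate 1 and 2 in replicate 2. The shared interval, at chr2:79444550-79444826 and 7.97 kb past the end, had 13.1 and 10.9. Neurod4 had 2 and 1 intervals, and the shared one, at chr10:130294352-130294505 and 14.2 kb upstream, was among the weakest at any neural gene, with 4.82 and 4.08 and 6 and 5 fragments at the summit. Neurod2 and Neurod6 had 0 intervals in both WT lists, as did Hes5, the Notch target that holds progenitors undifferentiated. Their nearest shared intervals were 68.2, 57.9 and 61.2 kb away.

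Homeodomain genes were the largest class, with 14 members, and 4 had a shared interval (28.6%), against 51.4% of all coding genes and a mean of 44.5% of coding genes of similar length. The difference between the classes was not tested. Nkx6-2, which patterns the ventral neural tube and acts in oligodendrocytes, was the exception in number, with 6 and 5 intervals in the WT lists and 5 shared. Its 1.15 shared intervals per 10 kb was the highest density of the set, and 2.77% of coding genes of similar length had as many shared intervals or more. The strongest lay inside Nkx6-2 near its end, at chr7:139579558-139580028, with fold enrichments of 20.7 and 14.6. The same interval also lies inside the annotated body of Inpp5a, so it cannot be assigned to Nkx6-2 alone. The other 4 lay 3.64 to 13.5 kb upstream and inside the long non-coding RNA gene Gm33031, with mean fold enrichments of 5.13 to 7.21. They are at chr7:139586311-139586616, chr7:139591316-139591519, chr7:139592783-139593033 and chr7:139596198-139596381. Each had 6 to 14 fragments at the summit in replicate 1 and 7 to 9 in replicate 2, fewer than the 29 and 28 of the strongest.

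Tlx3, a selector of excitatory neurons, had 1 interval in each WT list, and the shared interval at chr11:33203619-33203847 covers most of its promoter. The fold enrichments were 5.59 and 7.23, with 10 and 12 fragments, and the summit lay 0.163 kb upstream of the start. Dbx1, which marks a domain of spinal interneuron progenitors, had 1 interval in each list. It was shared, at chr7:49629531-49629908 and 1.73 kb past the end, with fold enrichments of 8.25 and 5.53. Its summits lay 129 bp apart in the replicates, so it is not shared where summits must lie within 100 bp. Lmx1b, needed for serotonergic and dopaminergic neurons, had 3 and 2 intervals. Both of its shared intervals lay inside its 80.2 kb body. The one at chr2:33616530-33616665 had fold enrichments of 7.11 and 9.05, and the one at chr2:33637424-33637696 had 4.03 and 6.67. Both were higher in replicate 2, unlike most shared intervals at neural genes. The summits of the interval at chr2:33637424-33637696 lay 147 bp apart, so only the other is shared where summits must lie within 100 bp. Of coding genes of similar length, 53.6% had as many shared intervals as Lmx1b or more. Another Lmx1b interval was the strongest of those found in 1 list only, with a fold enrichment of 8.73 in replicate 1.

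The other 10 homeodomain genes, regulators of forebrain, midbrain and spinal cord patterning, had no shared interval. Nkx2-2, Nkx6-1, Emx1, Emx2, Irx3, Isl1, En1 and Six3 had 0 intervals in both WT lists. Lhx2 had 1 interval in replicate 1 with a fold enrichment of 4.56, and En2 had 1 in replicate 2 with 5.03. Six3, a regulator of the forebrain and eye, lay 264.1 kb from the nearest shared interval. Isl1, which specifies motor neurons, lay 808.8 kb from it, farther than all but 1.60% of coding genes outside Y. Irx3 and Lhx2 were also far, at 101.1 and 116.8 kb. The remaining 6 were nearer, at 97.1 kb for Nkx2-2, 86.7 kb for Emx2, 48.6 kb for Nkx6-1, 39.9 kb for Emx1, 35.8 kb for En1 and 26.9 kb for En2. WT replicate 1 had an unshared interval nearer to 3 of the 4 farthest, 43.8 kb from Irx3, 62.1 kb from Six3 and 225.9 kb from Isl1, beside the one at Lhx2 given above.

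The POU and ZIC classes had 2 members each, and 1 of each had a shared interval. Pou3f2, a driver of neuronal fate in reprogramming, had 1 interval in each WT list. It was shared, at chr4:22478883-22479046 and 3.11 kb past the end, with 4.57 and 6.88. Pou3f3, its relative in cortical neurons, had 0 and 0, with the nearest shared interval 26.1 kb away. Zic4, which shapes the cerebellum with its neighbour Zic1, had 2 intervals in each list. Both were shared and lay inside Zic4 near its end, at chr9:91386571-91387111 and chr9:91387724-91387933, with mean fold enrichments of 5.82 and 5.14. The window of Zic1 overlaps that of Zic4 but stops short of these intervals, and its nearest shared interval was 20.8 kb away.

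**Figure D2:**
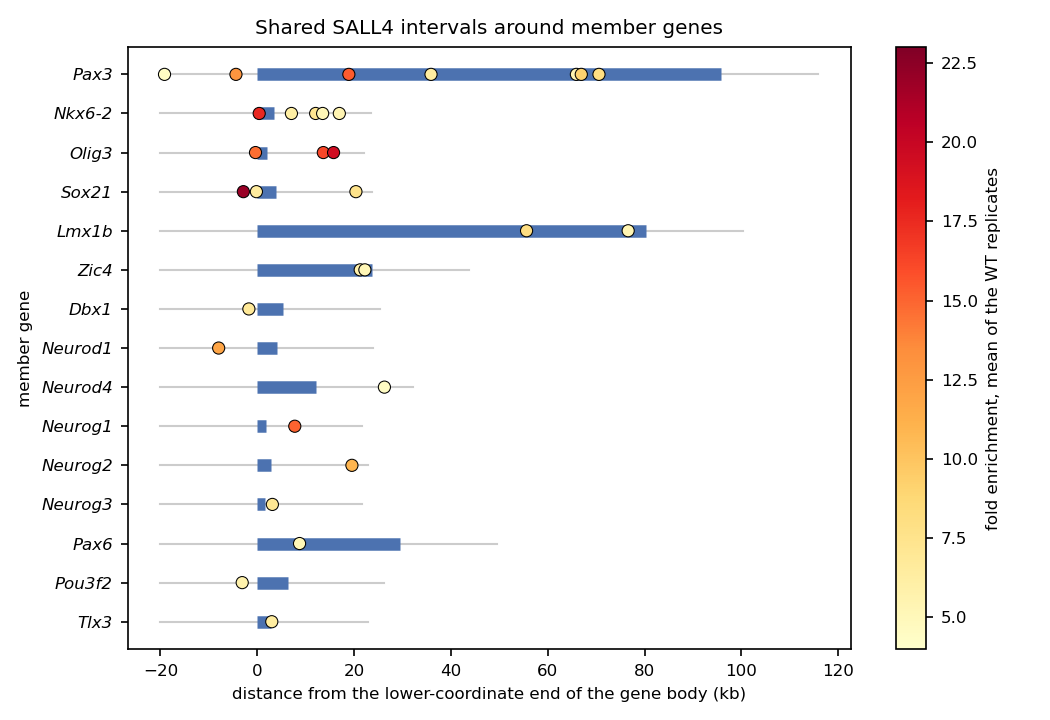
Position of the 31 shared SALL4 intervals (dots, coloured by mean fold enrichment of the WT replicates) around the 15 neural genes that have one. The x axis is the distance in kb from the lower-coordinate end of the gene body, blue bars are gene bodies and grey lines the 20 kb flanks. The dots of Olig3 and the darkest dot, at Sox21, lie outside the gene bodies, and 5 of the 7 Pax3 dots lie inside.

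Position within the windows was not used to choose the genes. Of the 31 shared intervals, 11 had their summit in the body of the neural gene and 20 in a flank. Bodies make up 24.3% of the windows, so the density was 0.260 per 10 kb in bodies and 0.152 per 10 kb in flanks. For all coding genes these densities were 0.180 and 0.197. The 11 came from 5 genes (Pax3, Lmx1b, Zic4, Pax6 and Nkx6-2), of which Pax3 gave 5. Without Pax3, left out after its values were seen, the pooled density in bodies was 0.183 per 10 kb, close to that of coding genes. Averaged gene by gene, and counting any overlap with the body instead of summits, the density was 0.148 per 10 kb for the 33 neural genes. For coding genes it was 0.184, the opposite order to the pooled values. A body overlapped by a shared interval was found at 5 of 33 neural genes, against 27.6% of coding genes. The neural bodies are shorter, with medians of 5.34 kb and 17.2 kb, and a shorter body has less room for an interval. The share among bodies of similar length was not computed.

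Gene ends were also examined. A shared summit within 1 kb of either end was found at 4 of 33 neural genes (Olig3, Tlx3, Sox21 and Nkx6-2), and at 7.88% of coding genes. The first 2 lie at the start of the gene and the other 2 near its end. Strand came with the promoter table, which holds 30 of the 33 genes. At those 30, 9 shared intervals lay upstream, 9 downstream and 6 in the body. Of the same 30, 2 genes (Olig3 and Tlx3) had a promoter that overlapped a shared interval, against 3.87% of the 17492 coding genes in that table. Of the 31 intervals, 15 lay in no annotated gene (48.4%) and 5 in a long non-coding RNA gene (16.1%). Of the 37975 shared intervals on the assembled chromosomes, 41.3% and 10.4% did. The 5 are few and not spread over genes, since 4 of them are the Nkx6-2 intervals in Gm33031.

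The letters ATATT, or AATAT when read on the other strand, were searched in the promoters as an AT-rich motif reported for SALL4. They were present in 8 of the 33 promoters listed for neural genes (24.2%) and in 25.3% of all 32851 promoters. Tlx3 holds AATAT once, starting at base 22 of the sequence above and inside the interval. Olig3 and Olig2 hold neither. The member promoters had a median G+C content of 64.3%, against 52.7% for all promoters.

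**Figure D3:**
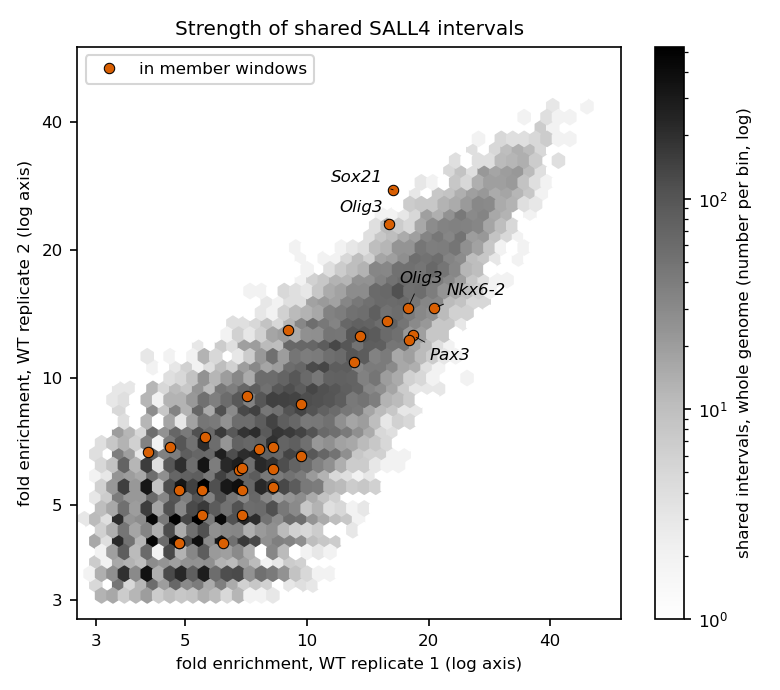
Fold enrichment in WT replicate 1 (x axis) and WT replicate 2 (y axis), both on log axes, for shared SALL4 intervals. Grey bins count the 38007 shared intervals of the genome and orange dots are the 31 at neural genes, with the 5 strongest named. The orange dots run from mean fold enrichments of 4.45 to 22.0 and do not reach the strongest intervals of the genome, up to 47.1.

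Strength was then compared with the rest of the genome. The median fold enrichment of the 31 shared intervals was 7.62 in replicate 1 and 6.80 in replicate 2, against 7.11 and 6.54 for all 38007 shared intervals. Of the 31, 17 lay above the genome's median, and 4 lay in the strongest 10%, at Sox21, Nkx6-2 and Olig3 (the last with 2). Fold enrichment was higher in replicate 1 at 23 of 31 and higher in replicate 2 at 8. The widths ran from 136 to 832 bp, with a median of 306 bp against 327 bp for all. The median summit was covered by 12 fragments in replicate 1 and 10 in replicate 2, with ranges of 5 to 47 and 5 to 54. Many single intervals therefore rest on few fragments.

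The replicates were called separately, so their agreement is an overlap. Of the 44 intervals in replicate 1, 31 were found in replicate 2, a share of 70.5% with a 95% confidence interval (Wilson) of 55.8 to 81.8. Of the 37 in replicate 2, 31 were found in replicate 1, a share of 83.8% (68.9 to 92.3). The confidence intervals cover counting error only and contain the shares of the whole lists, 70.4% and 79.3%. The 19 intervals found in 1 list only had fold enrichments of 3.07 to 8.73 and 4 to 12 fragments. Pax3 held 5 of them, all from replicate 1, and Sox21 held 3, all from replicate 2.

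Distances to the nearest shared interval were measured for all genes, including those with an empty window. The median was 26.1 kb from the gene body for neural genes and 17.6 kb for coding genes outside Y. Over the neural genes, the median of the values for coding genes of similar length was 32.9 kb. Irx3, Lhx2, Six3 and Isl1 lay more than 100 kb from one, as did 16.8% of coding genes outside Y. Among the 18 genes with an empty window the distance ran from 20.8 kb at Zic1 to 808.8 kb at Isl1.

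**Figure D4:**
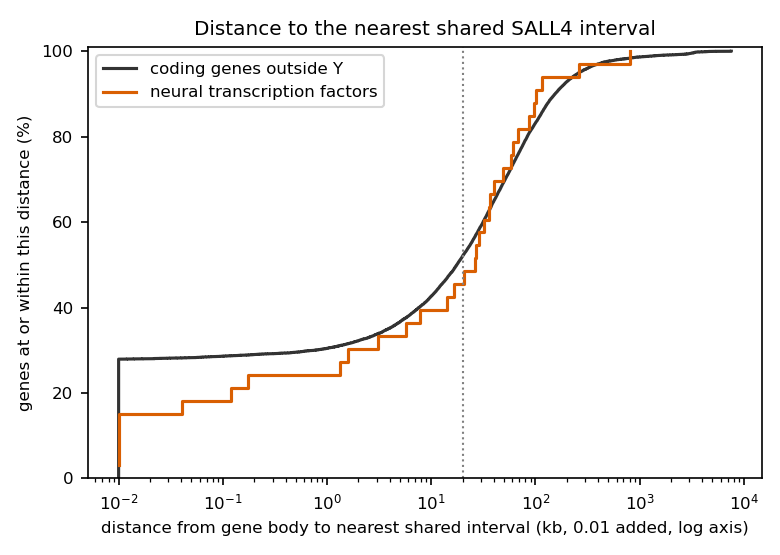
Cumulative share of genes (y axis, %) by distance from the gene body to the nearest shared SALL4 interval (x axis, kb on a log axis with 0.01 added), for the 33 neural genes and for coding genes outside Y. The dotted line marks 20 kb. The neural genes, whose bodies are shorter, start lower, with 5 of 33 bodies overlapped, and the curves cross between 20 and 100 kb.

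Other genes of neural development were counted the same way, from 4 lists. Of 45 other neural regulators, 16 had a shared interval (35.6%). Hes1, a Notch target that holds back neuronal differentiation, had 5. Pou3f1 and Sox3 were among the 29 with none. Of 12 Notch pathway genes, 10 had a shared interval (83.3%). Rbpj, the DNA-binding partner of the Notch receptors, held 22 of the list's 37, and Jag1 held 4. Of 15 genes for products of neurons and glia, 9 had one (60%), with 4 at Gad1 and none at Tubb3 or Nes. Of 6 repressors of neural genes, 5 had one (83.3%), with 5 at Id4, an inhibitor of bHLH factors, and 2 at Rest. The background for all 4 lists is the 51.4% of coding genes given above, and no share for genes of similar length was computed for them. That share varies with length. It was 37.8% for Dbx1, with a body of 5.34 kb, and 56.6% for Pax6, with a body of 29.5 kb. The lists differ in body length, with medians of 4.97, 28.5, 40.7 and 3.60 kb in the same order, and the differences between the lists were not tested.

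**Figure D5:**
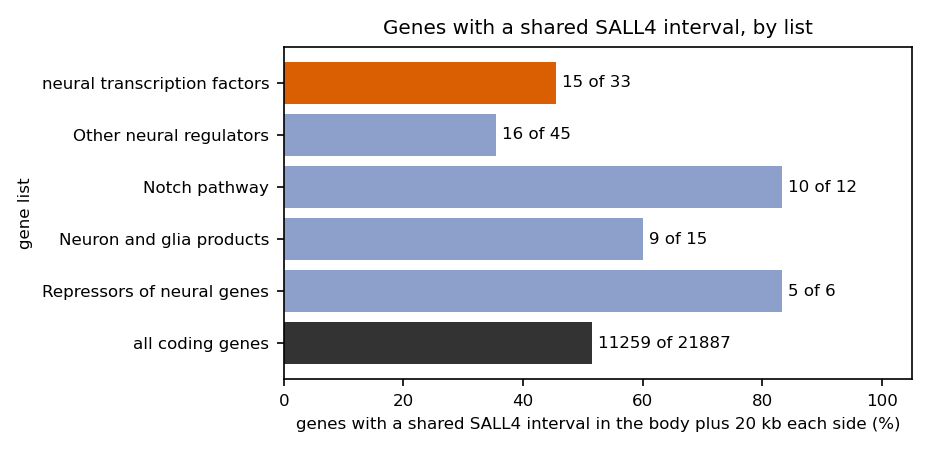
Share of genes with a shared SALL4 interval in the body plus 20 kb each side (x axis, %), for the 33 neural transcription factors, the 4 other lists and all coding genes (y axis). Labels give the number of genes with one and the number in the list. The neural transcription factors, at 15 of 33, lie close to the 51.4% of all coding genes.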

How the data were processed

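SALL4 CUT&RUN peak lists were used, 2 for the WT and 2 for the KO line, with groups and replicate numbers from the sample titles. Peaks of WT replicate 2 carry a name that mixes the letters of both genotypes (KWT), and the antibody label of the IgG samples names SALL4. The titles were followed, and every shared interval rests on WT replicate 2. Trim Galore 0.6.0, cutadapt 1.18, FastQC 0.11.8, BWA 0.7.17, MACS2 2.1.1.20160309 and the builds GRCm38 and mm10 are named in the submitters' processing notes. Settings and the control used are not given in the sources used here. Each list was called on 1 sample. The deposited values are the authors' peak score, fold enrichment (a ratio to the local background), −log10 p-value, −log10 q-value and summit offset. The score was not used further.

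Overlapping lines of a list were merged and the highest fold enrichment kept. Linked intervals of both WT lists were joined into 1 shared interval, and a gene counted those overlapping its window. Summit fragments were recovered from the authors' fold enrichment and −log10 p-value with a pseudocount of 1 (tolerance 0.0001 in −log10 p), for all 62 summits. The lists give no read totals, so library depth is unknown. Gene positions came from the RefSeq GRCm38.p6 table. Of its coding genes, 256 lie on Y, where 1 has a shared interval; without Y, 52.0% of coding genes have one. Merging and counting were tested on simulated data. Alternatives varied the flank, the overlap rule, q-value and fold limits, the length range of similar genes, the replicates kept and the pairing. The members and lists were chosen with earlier results of these data known. Full values were given, by rule, for the 8 members with most shared intervals, those with none, those with one within 1 kb of a gene end, the strongest, and those that share a window. The remaining members are given in less detail. Python 3.11.15, numpy 2.4.6, pandas 2.3.3, scipy 1.17.1 and matplotlib 3.10.9 were used. Some genes of the other lists are not reported here by name.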

Additional observations from a re-analysis of the deposited data

How the results depend on the processing

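The KO lists hold no autosomal interval, so KO was 0 in all 10 alternatives to the WT and KO comparison and its direction could not change. The log2 difference ran from 3.39, at 10-fold enrichment or more, to 6.13 with flanks of 50 kb, and 5.25 to 5.49 with 1 replicate left out. Pairing same-numbered libraries (a replicate block) gave 5.37, with p = 0.5 by an exact sign-flip test, which cannot go lower with 2 pairs; with 1 value per library, whether the numbers pair the libraries was not tested. The number of genes with a shared interval, 15, was 5 with the gene body alone, 24 with flanks of 50 kb, 7 where −log10 q had to reach 10 and 6 where fold enrichment had to, which is 15.2%, 72.7%, 21.2% and 18.2% of the genes, against 27.6%, 68.7%, 26.2% and 20.2% of coding genes. It was 16 to 17 with 1 replicate left out. It was 13 with summits within 100 bp, which loses Dbx1 and Neurog3. The 31 shared intervals became 11, 50, 11 and 9 under these 4 settings, 20 where −log10 p had to reach 8 in every library (chosen after seeing the data) and 37 to 44 with 1 replicate left out. The flank settings use narrower or wider windows and the limits leave fewer intervals, by construction. Leaving out 1 replicate adds intervals by construction, since those of the other list need not be shared. The median per 10 kb, 0, was 0 to 0.142 with 1 replicate left out and 0.0961 with flanks of 50 kb, where that of coding genes was 0.0970, and the mean, also chosen after seeing the data, was 0.166. The mean was below that of coding genes in the other settings run and above it with flanks of 10 kb and with the −log10 q and fold limits. The mean share found in the other replicate, 77.1%, was 64.7% with summits within 100 bp and 95% where fold enrichment had to reach 10, and the cause was not tested. The median fold enrichment, 7.15, was 15.1 with the −log10 q limit, which removes weak intervals, and 6.80 to 7.62 with 1 replicate left out. Leaving out a WT replicate gives no share found in the other. With 5 to 54 fragments per summit, weak intervals limit the counts.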
